A study of Homo sapiens with 6 samples.

Results

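The ADAM, ADAMTS and ADAMTSL genes were examined in human fibroblasts from a model of oncogene-induced senescence, without a time course. The members were all entries of the expression table whose symbol is ADAM, ADAMTS or ADAMTSL followed by a number, which gave 46 of 59050 entries, namely 22 ADAM, 19 ADAMTS and 5 ADAMTSL genes. Of these, 23 had a mean of at least 1 TPM (a transcript level scaled for gene length and for library size) over the 6 libraries and were tested, 9 ADAM, 11 ADAMTS and 3 ADAMTSL genes. Bulk RNA sequencing compared HFF human foreskin fibroblasts given 100 nM 4-hydroxytamoxifen (4-OHT), 3 libraries, with HFF given the vehicle DMSO, 3 libraries. In the design, cells at about passage 18 were given the ER:RAS vector, which encodes H-RAS carrying G12V joined to an oestrogen receptor part that binds 4-OHT, by a virus packaged in HEK293T cells, and were selected with 200 µg/ml neomycin. Senescent cells were collected a week after 4-OHT was added. The sources used here do not say whether the line came from 1 clone or many, or whether the 3 libraries of a group came from separate cultures, and each p-value therefore reflects only how these libraries scatter, which may be technical. None of the 6 libraries is from cells given 4-OHT without ER:RAS, and so the action of 4-OHT and that of RAS cannot be told apart.

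ADAM proteins are membrane-anchored and mostly cut other membrane proteins near the cell surface, a release called shedding that frees growth factors, cytokines and receptor ectodomains. ADAMTS proteins are secreted relatives with thrombospondin repeats in place of the membrane anchor, and they cut collagen precursors, proteoglycans and microfibril proteins in the extracellular matrix. ADAMTSL proteins carry the thrombospondin repeats but lack the protease domain, and several bind fibrillin microfibrils. The proteases are made as inactive precursors and several of them are held in check by TIMP inhibitors, so a transcript level is not a measure of cutting.

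The sequence that sets the proteases apart from their relatives is the zinc-binding site, in which 3 histidines hold the metal and a glutamate after the first takes part in the cut. In the longest coding transcript of each gene (GENCODE 29, GRCh38), a run of codons with this spacing was found in 12 of 22 ADAM, 19 of 19 ADAMTS and 0 of 5 ADAMTSL genes, while 8 ADAM genes lacked it and 2, the pseudogenes ADAM5 and ADAM6, have no coding transcript. Sites of 33 bases are shown for the members with a site whose log2 fold change exceeded 1 in size (ADAMTS14, ADAM19, ADAMTS5, ADAM12, ADAM15 and ADAM33), for the broad sheddases ADAM10 and ADAM17, and for other ADAMTS genes of the same substrate groups, with the histidine codons in capitals, read 5′ to 3′ on the coding strand.
ADAM19 (chr5:157505734-157505766): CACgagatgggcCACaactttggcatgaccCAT
ADAM12 (chr10:126094059-126094091): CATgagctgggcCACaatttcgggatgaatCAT
ADAM15 (chr1:155056995-155057027): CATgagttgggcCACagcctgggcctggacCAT
ADAM33 (chr20:3673422-3673454): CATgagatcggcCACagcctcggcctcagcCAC
ADAM10 (chr15:58627881-58633225): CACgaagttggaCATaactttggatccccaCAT
ADAM17 (chr2:9510078-9510110): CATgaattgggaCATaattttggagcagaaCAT
ADAMTS14 (chr10:70732343-70733900): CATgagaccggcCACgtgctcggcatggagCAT
ADAMTS2 (chr5:179154177-179154830): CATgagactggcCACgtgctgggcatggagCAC
ADAMTS3 (chr4:72319460-72319874): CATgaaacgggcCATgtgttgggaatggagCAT
ADAMTS5 (chr21:26943525-26954748): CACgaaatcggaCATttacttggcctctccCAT
ADAMTS1 (chr21:26841143-26841867): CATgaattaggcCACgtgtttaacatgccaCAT
A coordinate range longer than the site spans an intron, and all of the shown ADAMTS sites are split between neighbouring exons. The ADAMTS14 and ADAMTS2 sites shared 30 of 33 bases, and each shared 27 with ADAMTS3, the other procollagen protease. ADAM19 shared 26 bases with ADAM12 and 24 with ADAM33, which fell as ADAM19 rose. The eighth codon encoded glycine in all 12 ADAM genes with a site and in 14 ADAMTS genes, asparagine in 4 ADAMTS genes (ADAMTS1, ADAMTS4, ADAMTS9 and ADAMTS15) and serine in ADAMTS8. Of the tested members with a site, 7 were higher in 4-OHT, 6 were lower and 6 did not pass the test. Of the 4 tested without one, 2 were lower and 2 did not pass. Among all genes tested, 19.8% were higher and 29.9% lower, and 4 genes are too few for a comparison by site.

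Fibroblast identity was checked first. All 10 fibroblast markers were above 1 TPM, summing to 19101 to 19509 TPM in 4-OHT and 20227 to 20826 TPM in DMSO. VIM weighed most in these sums, at 11537 TPM in 4-OHT and 10399 TPM in DMSO on average. Single markers went apart, with 3 called higher and 7 lower, against 19.8% and 29.9% of all tested genes. COL3A1, PDGFRA, FAP and DCN had log2 fold changes of -0.91, -0.92, -1.01 and -1.04, and PDGFRB and THY1 of 0.71 and 0.42. Senescence-linked genes separated the groups, with CDKN2B, a cell cycle inhibitor, at 158 ± 3.97 TPM in 4-OHT and 6.47 ± 0.129 TPM in DMSO, and LMNB1, a nuclear lamina gene that falls in senescence, at 6.87 ± 1.10 TPM in 4-OHT and 61.1 ± 5.50 TPM in DMSO (SD, n = 3 each). HRAS, whose row can take reads of the vector as well as of the cell's own gene, was at 1281 ± 51.1 TPM in 4-OHT and 935 ± 24.7 TPM in DMSO (SD, n = 3 each), so high levels were present in both. ESR1, an oestrogen receptor gene, was at 72.4 ± 1.61 TPM in 4-OHT and 47.5 ± 1.76 TPM in DMSO (SD, n = 3 each). How far vector reads enter either row was not tested. The labels of the DMSO libraries do not state that these cells carry ER:RAS, and the vector and the selection are given for the design as a whole. If the DMSO cells do not carry it, the effect of carrying the vector cannot be told apart from that of 4-OHT. Summed markers of other cell types were lower in 4-OHT for keratinocytes and other epithelia (124 to 150 TPM in 4-OHT, 431 to 450 TPM in DMSO), where KRT19 and KRT18 led the 4 of 9 markers above 1 TPM and KRT5, KRT14, KRT1, CDH1 and TP63 stayed under 0.1 TPM. KRT1 and the melanocyte gene TYR were listed at 0 throughout. Smooth muscle and pericyte markers, 4 of 6 above 1 TPM, summed to 233 to 234 TPM in 4-OHT and 248 to 262 TPM in DMSO, but single markers went apart. RGS5 and NOTCH3 rose to 24.6 ± 3.99 and 33.7 ± 1.08 TPM in 4-OHT, against 3.30 ± 0.514 and 11.01 ± 0.874 TPM in DMSO (adjusted p = 1.02e-05 and 6.6e-06, limma). CNN1 and ACTA2 fell to 5.57 ± 0.228 and 169 ± 4.05 TPM in 4-OHT, against 36.1 ± 2.47 and 202 ± 10.6 TPM in DMSO (adjusted p = 8.92e-07 and 0.00411, limma; all SD, n = 3 each). Immune markers, 2 of 7 above 1 TPM, summed to 59.7 to 67.3 TPM in 4-OHT and 60.1 to 90.5 TPM in DMSO. Endothelial markers, 1 of 6 above 1 TPM, summed to 1.38 to 1.82 TPM in 4-OHT and 2.47 to 2.57 TPM in DMSO. That marker, TEK, was at 0.366 ± 0.106 TPM in 4-OHT and 1.97 ± 0.149 TPM in DMSO (SD, n = 3 each, adjusted p = 0.00129, limma). Melanocyte markers, 2 of 5 above 1 TPM, summed to 6.51 to 6.82 TPM in 4-OHT and 8.59 to 9.55 TPM in DMSO. The part of these cell types in the results below was not tested, and in bulk RNA fewer cells of a type and less RNA per cell cannot be told apart.

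Of the 23 tested members, 7 were higher and 8 were lower in 4-OHT at an adjusted p under 0.05 (limma on log2(TPM + 1), Benjamini-Hochberg over 15272 genes). Among all genes tested the same rule called 49.6%, with 19.8% higher and 29.9% lower, against 15 of 23 members (65.2%), so the background was itself broad. Changes of at least 1 log2 unit were found in 7 of the 23 members, 4 higher and 3 lower, against 12.4% of all tested genes. The median absolute log2 fold change was 0.69 over the members and 0.33 over all genes tested, while the signed medians were close, at -0.074 for the members and -0.094 for all genes. In 19 of 23 members the 3 libraries of 4-OHT lay entirely above (10) or entirely below (9) the 3 of DMSO, against 59% of all tested genes. Limited to genes of at least 5 TPM, 13 of 16 members were called, with 56.3% of all such genes. The members moved both ways within each protease family: among ADAM genes 3 rose and 3 fell, among ADAMTS genes 4 rose and 3 fell, and among the 3 tested ADAMTSL genes 2 fell and 1 did not pass the test.

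**Figure D1:**
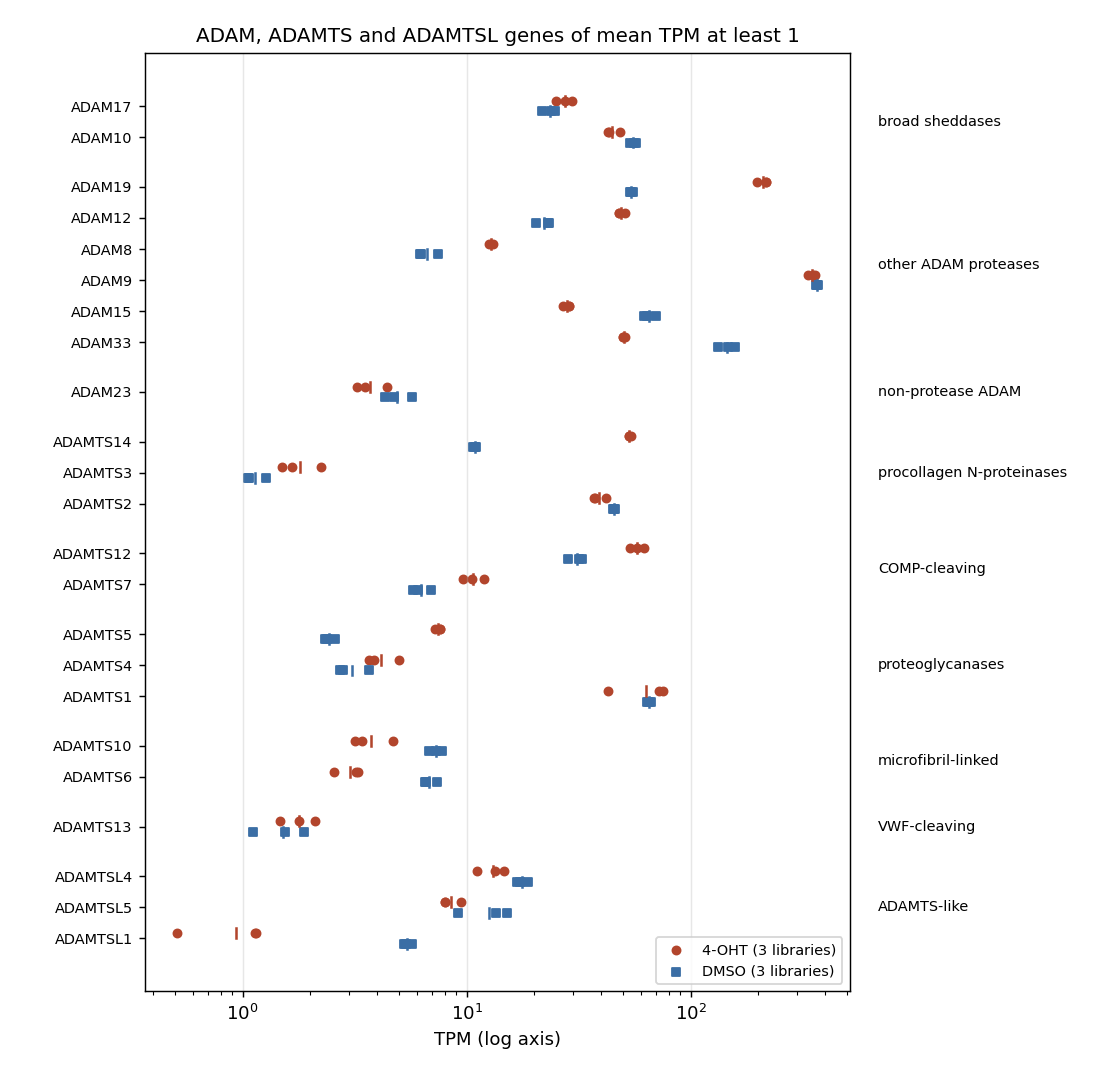
TPM (log axis) of the 23 tested members in each library, with circles for 4-OHT and squares for DMSO (3 libraries each) and ticks at the group means, grouped by role. ADAM9 lies highest in both groups, and the circles stand well to the right of the squares for ADAMTS14 and ADAM19 and well to the left for ADAM33 and ADAMTSL1.

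The broad sheddases ADAM10 and ADAM17 stayed near their DMSO levels, ADAM10 falling slightly and ADAM17 not passing the test. ADAM10, which sheds Notch receptors and N-cadherin and acts as an alpha-secretase on the amyloid precursor, had 42.8, 43.4 and 48.3 TPM in the 4-OHT libraries and 53.9, 57.2 and 55.7 TPM in the DMSO libraries. Its log2 fold change was -0.31 (SE 0.064, adjusted p = 0.00605, limma), and all 4-OHT libraries lay below all DMSO libraries. ADAM17, the protease that releases TNF and most ligands of the EGF receptor, had 25.1, 27.4 and 29.7 TPM in 4-OHT and 21.7, 24.9 and 23.8 TPM in DMSO. The 3 4-OHT values of ADAM17 were above the DMSO values, but by margins similar to the spread, and the log2 fold change of 0.21 (95% interval 0.0083 to 0.42) did not pass (adjusted p = 0.0799). It passed at 0.33 (adjusted p = 0.0142) when libraries were rescaled by median-of-ratios, and also with quantile normalisation (adjusted p = 0.0325) and without 4-OHT replicate 1 (adjusted p = 0.0496). ADAM10 made up 62.1% ± 0.881 of the summed TPM of the pair in 4-OHT and 70.3% ± 0.877 in DMSO (SD, n = 3 each). IAH1, which overlaps 1323 exonic bases of ADAM17 on the opposite strand (12.3% of its exons), averaged 73.3 TPM, and since the strand setting of the counting is not given, its reads cannot be told apart from those of ADAM17 in that stretch.

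Among the other ADAM proteases, ADAM19, ADAM12 and ADAM8 rose and ADAM33 and ADAM15 fell. ADAM19 (meltrin beta, a protease that can shed neuregulin; chr5:157395534-157575775, minus strand) had 199, 217 and 218 TPM in the 4-OHT libraries, against 54.0, 55.4 and 53.7 TPM in the DMSO libraries. That is 3.88-fold higher in 4-OHT, a log2 fold change of 1.94 (SE 0.050, adjusted p = 3.53e-07), with no overlap and a gap many times the spread within either group. ADAM12 (meltrin alpha, known from muscle and mesenchyme and as a marker of fibrotic tissue; chr10:126012381-126388455, minus strand) had 50.8, 47.8 and 48.1 TPM in 4-OHT and 23.3, 23.1 and 20.4 TPM in DMSO, a log2 fold change of 1.10 (SE 0.071, adjusted p = 1.87e-05). ADAM8, best known from leukocytes, had 12.6, 12.9 and 13.2 TPM in 4-OHT and 7.46, 6.24 and 6.21 TPM in DMSO, a log2 fold change of 0.87 (SE 0.097, adjusted p = 0.000321). For ADAM12 and ADAM8 too, the lowest 4-OHT library lay above the highest DMSO library. Of the immune markers, CD14 also rose, to 5.24 ± 1.70 TPM in 4-OHT, against 2.14 ± 0.822 TPM in DMSO (SD, n = 3 each, log2 fold change 0.99, adjusted p = 0.0187), without overlap. CD68 stood at 57.4 ± 4.73 TPM in 4-OHT and 77.0 ± 16.6 TPM in DMSO and was not called (adjusted p = 0.0761). PTPRC averaged 0.986 TPM over the 6 libraries and ITGAM stayed at or under 0.0239 TPM. The part of these markers in the ADAM8 value was not tested.

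ADAM33 (a gene linked to asthma and expressed in airway fibroblasts and smooth muscle; chr20:3667965-3682246, minus strand) had 50.2, 49.8 and 51.1 TPM in 4-OHT libraries, against 157, 146 and 133 TPM in DMSO libraries. It was 2.89-fold lower in 4-OHT (log2 fold change -1.51, SE 0.066, adjusted p = 3.33e-06), and the 4-OHT libraries were tighter than the DMSO libraries, with SDs of 0.629 and 12.3 TPM. ADAM15, which carries an integrin-binding motif in its disintegrin domain (chr1:155050566-155062775, plus strand), had 26.9, 28.6 and 28.8 TPM in 4-OHT and 69.8, 64.0 and 61.8 TPM in DMSO. Its log2 fold change was -1.18 (SE 0.065, adjusted p = 9.15e-06), also without overlap. ADAM9, a broadly expressed member of the same kind, was the most abundant of all members, 419th among all entries by mean TPM. It had 335, 353 and 360 TPM in 4-OHT and 363, 370 and 369 TPM in DMSO, values that only just separate and were not called. Its log2 fold change of -0.074 had a 95% interval of -0.17 to 0.018 (adjusted p = 0.159, limma). Median-of-ratios scaling turned that value to 0.047 (adjusted p = 0.321). ADAM23, which has no zinc site and binds LGI proteins of the nervous system, had 3.52, 3.23 and 4.40 TPM in 4-OHT and 4.30, 5.70 and 4.75 TPM in DMSO, with overlapping groups and no call (adjusted p = 0.109).

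The summed level of the 22 ADAM genes was 778 ± 28.5 TPM in 4-OHT and 748 ± 15.0 TPM in DMSO (SD, n = 3 each), and the groups overlapped. With median-of-ratios scaling they did not, at 776 to 824 TPM in 4-OHT and 693 to 719 TPM in DMSO, so whether the total differed depends on the scaling. The makeup of the sum, which a scaling factor per library leaves as it is, differed between the groups. ADAM19 made up 27.1% ± 0.512 of it in 4-OHT and 7.28% ± 0.121 in DMSO. ADAM33 made up 6.48% ± 0.209 in 4-OHT and 19.5% ± 1.30 in DMSO. ADAM9 remained the largest contributor in both groups, at 44.9% ± 0.109 in 4-OHT and 49.1% ± 1.26 in DMSO (SD, n = 3 each). These shares are descriptions without a test.

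**Figure D2:**
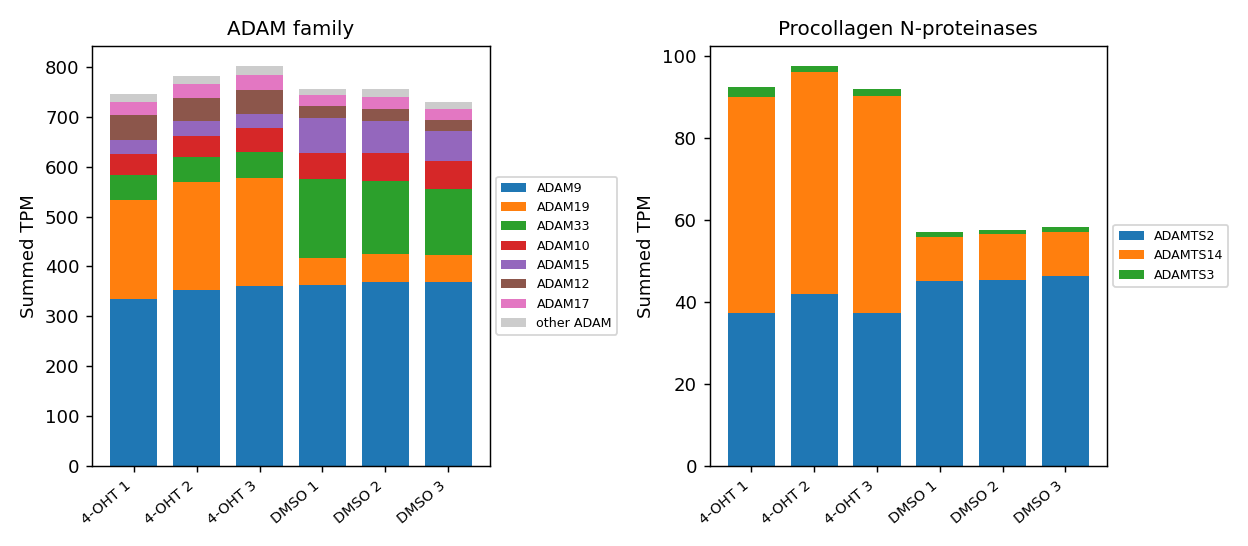
Summed TPM by library of the ADAM genes (left) and of the procollagen N-proteinases ADAMTS2, ADAMTS14 and ADAMTS3 (right), stacked by gene, with the 3 4-OHT libraries before the 3 DMSO libraries. The ADAM columns reach similar heights with more ADAM19 and less ADAM33 in 4-OHT, and the ADAMTS14 segment takes 56.7% of the right-hand columns in 4-OHT and 18.9% in DMSO on average.

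The procollagen N-proteinases ADAMTS2, ADAMTS3 and ADAMTS14 remove the amino-terminal propeptide of fibrillar procollagens so that fibrils can form, and in this trio the leading transcript changed. ADAMTS14 (chr10:70672803-70762441, plus strand) had 52.9, 54.1 and 52.9 TPM in the 4-OHT libraries, against 10.9, 11.1 and 10.7 TPM in the DMSO libraries. It was 4.89-fold higher in 4-OHT, with a log2 fold change of 2.19 (SE 0.057, adjusted p = 3.55e-07), the largest rise among the tested members. ADAMTS2, the enzyme lost in dermatosparactic Ehlers-Danlos syndrome (chr5:179110851-179345430, minus strand), had 37.2, 42.0 and 37.3 TPM in 4-OHT and 45.0, 45.4 and 46.2 TPM in DMSO. Its groups did not overlap and it fell by 0.23 on the log2 scale (SE 0.064, adjusted p = 0.022), a call that was lost with median-of-ratios scaling (log2 fold change -0.11, adjusted p = 0.186) and without 4-OHT replicate 1 or 3 (adjusted p = 0.0684 each), DMSO replicate 2 (adjusted p = 0.056) or DMSO replicate 3 (adjusted p = 0.0612). ADAMTS3, which also takes part in the activation of VEGFC, had 2.25, 1.50 and 1.67 TPM in 4-OHT and 1.05, 1.07 and 1.27 TPM in DMSO. Its groups did not overlap, but it was not called (log2 fold change 0.39, adjusted p = 0.0992, limma).

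Together the trio summed to 94.0 ± 3.17 TPM in 4-OHT and 57.6 ± 0.638 TPM in DMSO (SD, n = 3 each). ADAMTS14 made up 56.7% ± 1.13 of that sum in 4-OHT and 18.9% ± 0.436 in DMSO, and ADAMTS2 made up 41.3% ± 1.47 in 4-OHT and 79.1% ± 0.248 in DMSO. TPM is scaled for length, so levels of different genes can be set beside each other on this scale. Of their substrates, COL1A1, the main chain of type I collagen, fell to 2671 ± 34.2 TPM in 4-OHT, against 3044 ± 26.6 TPM in DMSO (adjusted p = 0.000998, limma), and COL3A1 to 477 ± 6.54 TPM in 4-OHT, against 895 ± 5.35 TPM in DMSO (adjusted p = 9.15e-07, limma). COL1A2 and COL5A2 also fell (adjusted p = 2.55e-06 and 5.1e-05, limma). COL5A1, a fibrillar collagen too, went the other way. It rose to 440 ± 19.2 TPM in 4-OHT, against 234 ± 6.11 TPM in DMSO (adjusted p = 5.41e-06, limma). These collagens were chosen here after their values were seen.

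Bases upstream of the start are shown for the 2 members with the largest rises and for the one with the largest fall (RefSeq, GRCh38.p14, 250 bases before the first listed start, 5′ to 3′ on the gene's strand), with capitals marking GC boxes.
ADAMTS14 (chr10:70672256-70672505, plus strand): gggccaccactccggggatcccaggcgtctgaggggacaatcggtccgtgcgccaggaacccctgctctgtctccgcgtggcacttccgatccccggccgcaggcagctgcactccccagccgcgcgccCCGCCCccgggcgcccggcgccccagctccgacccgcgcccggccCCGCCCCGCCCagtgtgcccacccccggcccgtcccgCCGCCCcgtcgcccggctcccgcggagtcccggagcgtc
ADAM19 (chr5:157575776-157576025, minus strand): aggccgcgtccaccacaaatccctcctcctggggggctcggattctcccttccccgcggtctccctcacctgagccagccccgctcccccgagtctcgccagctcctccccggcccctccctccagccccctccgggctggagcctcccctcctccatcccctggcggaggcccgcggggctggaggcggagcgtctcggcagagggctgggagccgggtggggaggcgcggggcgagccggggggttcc
ADAMTSL1 (chr9:18473903-18474152, plus strand): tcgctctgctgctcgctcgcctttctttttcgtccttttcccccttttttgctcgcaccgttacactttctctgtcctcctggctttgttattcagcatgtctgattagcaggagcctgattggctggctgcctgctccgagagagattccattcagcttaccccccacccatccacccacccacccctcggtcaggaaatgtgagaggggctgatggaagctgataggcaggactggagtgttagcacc
The ADAMTSL1 start used lies inside the annotated gene, which has several starts. The ADAMTS14 window ends at 70672505, upstream of the GENCODE gene start at 70672803, so the RefSeq and GENCODE starts differ for that gene. Motifs were searched on both strands as exact letters, namely the GC box GGGCGG, the AP-1 site TGANTCA, the TATA box TATAAA, the ETS core CCGGAA and the E-box CACGTG. The ADAMTS14 window held 4 GC boxes, 2 of which overlap, and the ADAM19 and ADAMTSL1 windows held none of the motifs. Promoters were listed for 29 members and for 18 of the 23 tested. A GC box stood in 15 of these 18 (83.3%) and in 67.5% of the 10198 promoters of tested genes, an AP-1 site in 1 of 18 and in 3.94%, a TATA box in 1 of 18 and in 5.24%, an ETS core in 2 of 18 and in 25.5%, and an E-box in 2 of 18 and in 8.99%. The median GC content was 75.4% over the members and 64.8% over tested genes. A match describes letters only.

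ADAMTS12 and ADAMTS7 are known to cut the cartilage protein COMP, and both rows were higher in 4-OHT. ADAMTS12 (chr5:33523535-33892192, minus strand) had 61.8, 53.8 and 57.9 TPM in the 4-OHT libraries and 31.8, 32.7 and 28.4 TPM in the DMSO libraries. Its log2 fold change was 0.88 (SE 0.078, adjusted p = 9.71e-05), and the lowest 4-OHT library lay well above the highest DMSO library. COMP itself stayed at or under 0.187 TPM in every library. ADAMTS7 (chr15:78759203-78811431, minus strand) had 12.0, 10.6 and 9.67 TPM in 4-OHT and 5.79, 6.05 and 6.98 TPM in DMSO, a log2 fold change of 0.69 (SE 0.115, adjusted p = 0.00218).

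The ADAMTS7 value has a limit. The pseudogene ADAMTS7P4 aligned to the ADAMTS7 transcript at 95.3% identity over 3576 of 5490 bases, and its row went the other way, with 6.22, 4.26 and 5.11 TPM in 4-OHT and 10.2, 9.07 and 10.3 TPM in DMSO (log2 fold change -0.82, adjusted p = 0.00224). Added together, the 2 rows had 18.2, 14.8 and 14.8 TPM in 4-OHT and 15.9, 15.1 and 17.2 TPM in DMSO, which overlap. The log2 fold change of the sum was -0.019 (SE 0.103, adjusted p = 0.896), a sum chosen after the values were seen, and 6 members were then higher in place of 7. How the authors' counting split reads between the copies was not tested, so the rise of ADAMTS7 is uncertain. Other copies, ADAMTS7P1 and ADAMTS7P3, averaged 0.0350 and 0.133 TPM over the 6 libraries.

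**Figure D3:**
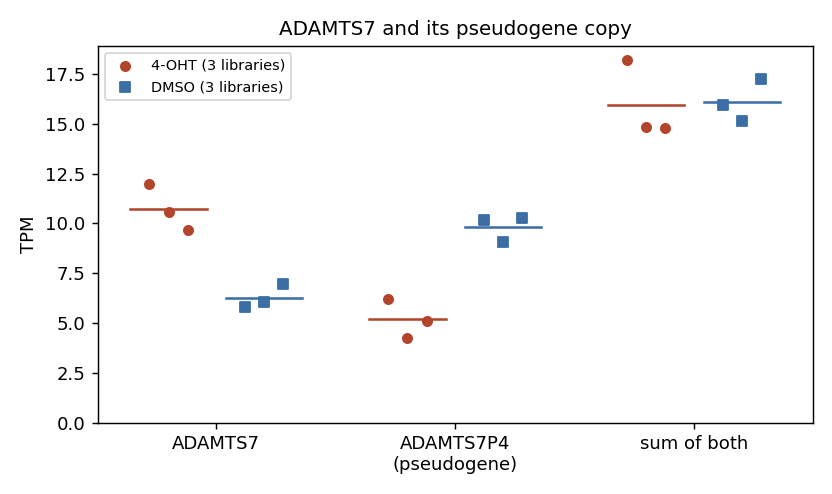
TPM of ADAMTS7, of its pseudogene copy ADAMTS7P4 and of their sum in each library, with circles for 4-OHT and squares for DMSO (3 libraries each) and lines at the group means. The 2 rows move in opposite directions, and the summed means are 15.9 TPM in 4-OHT and 16.1 TPM in DMSO.

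The tested proteoglycanases were ADAMTS1, ADAMTS4 and ADAMTS5, which cut aggrecan and versican. ADAMTS5 (chr21:26917912-26966513, minus strand), the main aggrecan-cutting enzyme of mouse cartilage, had 7.63, 7.60 and 7.25 TPM in the 4-OHT libraries and 2.38, 2.60 and 2.33 TPM in the DMSO libraries. It rose 3.07-fold in TPM, with a log2 fold change of 1.31 (SE 0.105, adjusted p = 6.14e-05) and no overlap. ADAMTS4 had 3.67, 5.0 and 3.84 TPM in 4-OHT and 2.80, 3.66 and 2.73 TPM in DMSO, values that only just separate and were not called (log2 fold change 0.35, adjusted p = 0.111). ADAMTS1, which lies 72502 bases from ADAMTS5 on the same strand of chromosome 21, was the most abundant of the trio. Its levels were 72.0, 75.3 and 42.7 TPM in 4-OHT and 65.0, 66.8 and 63.8 TPM in DMSO. The third 4-OHT library was the lowest of the 6 for ADAMTS1 while the other two were the highest, and the log2 fold change was -0.085 (SE 0.200, adjusted p = 0.752). Without that library it was 0.17 (adjusted p = 0.0467). The summed level of all 7 proteoglycanases, those under 1 TPM included, was 75.8 ± 18.9 TPM in 4-OHT and 72.1 ± 2.65 TPM in DMSO (SD, n = 3 each). ADAMTS1 dominates this sum.

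The microfibril-linked ADAMTS10 and ADAMTS6 both fell. ADAMTS10, which binds fibrillin and is mutated in Weill-Marchesani syndrome, had 4.69, 3.41 and 3.17 TPM in 4-OHT and 7.78, 6.82 and 7.30 TPM in DMSO (log2 fold change -0.82, SE 0.145, adjusted p = 0.003). ADAMTS6, its closest relative, had 2.56, 3.19 and 3.27 TPM in 4-OHT and 6.60, 6.53 and 7.37 TPM in DMSO (log2 fold change -0.97, SE 0.123, adjusted p = 0.000605). For both, every 4-OHT library lay below every DMSO library. ADAMTS13, the plasma protease that trims von Willebrand factor, was low, with 2.11, 1.79 and 1.48 TPM in 4-OHT and 1.88, 1.54 and 1.12 TPM in DMSO, and its groups overlapped (adjusted p = 0.509). The summed level of the 19 ADAMTS genes was 247 ± 22.0 TPM in 4-OHT and 183 ± 3.37 TPM in DMSO (SD, n = 3 each), without overlap, and ADAMTS14 made up 21.7% ± 1.89 of it in 4-OHT and 5.95% ± 0.0211 in DMSO.

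None of the 3 tested ADAMTSL genes rose, and 2 of them fell. ADAMTSL1 (punctin, a matrix glycoprotein; chr9:17906563-18910950, plus strand) had 0.512, 1.15 and 1.14 TPM in the 4-OHT libraries, against 5.70, 5.26 and 5.35 TPM in the DMSO libraries. It was 5.81-fold lower in 4-OHT by mean TPM, and its log2 fold change was -1.75 (SE 0.178, adjusted p = 0.000192), a scale that understates the change of low genes. ADAMTSL4, which binds fibrillin and is mutated in inherited lens dislocation, had 13.5, 11.2 and 14.7 TPM in 4-OHT and 17.3, 18.8 and 16.8 TPM in DMSO. Its groups did not overlap (log2 fold change -0.41, SE 0.110, adjusted p = 0.0183), but the call was lost with median-of-ratios scaling, with quantile normalisation, with no filter and without DMSO replicate 2 (adjusted p = 0.0613). Antisense ADAMTSL4-AS1 overlaps 736 exonic bases of ADAMTSL4 and averaged 0.343 TPM. ADAMTSL5, which can bind fibrillin, had 8.02, 9.40 and 8.05 TPM in 4-OHT and 13.5, 15.2 and 9.18 TPM in DMSO. Its lowest DMSO library, the third, lay under the highest 4-OHT library, and the log2 fold change of -0.50 did not pass (adjusted p = 0.0515). Without that DMSO library it was -0.69 (adjusted p = 0.00464). The 5 genes summed to 22.6 ± 1.13 TPM in 4-OHT and 35.7 ± 4.07 TPM in DMSO (SD, n = 3 each), without overlap.

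**Figure D4:**
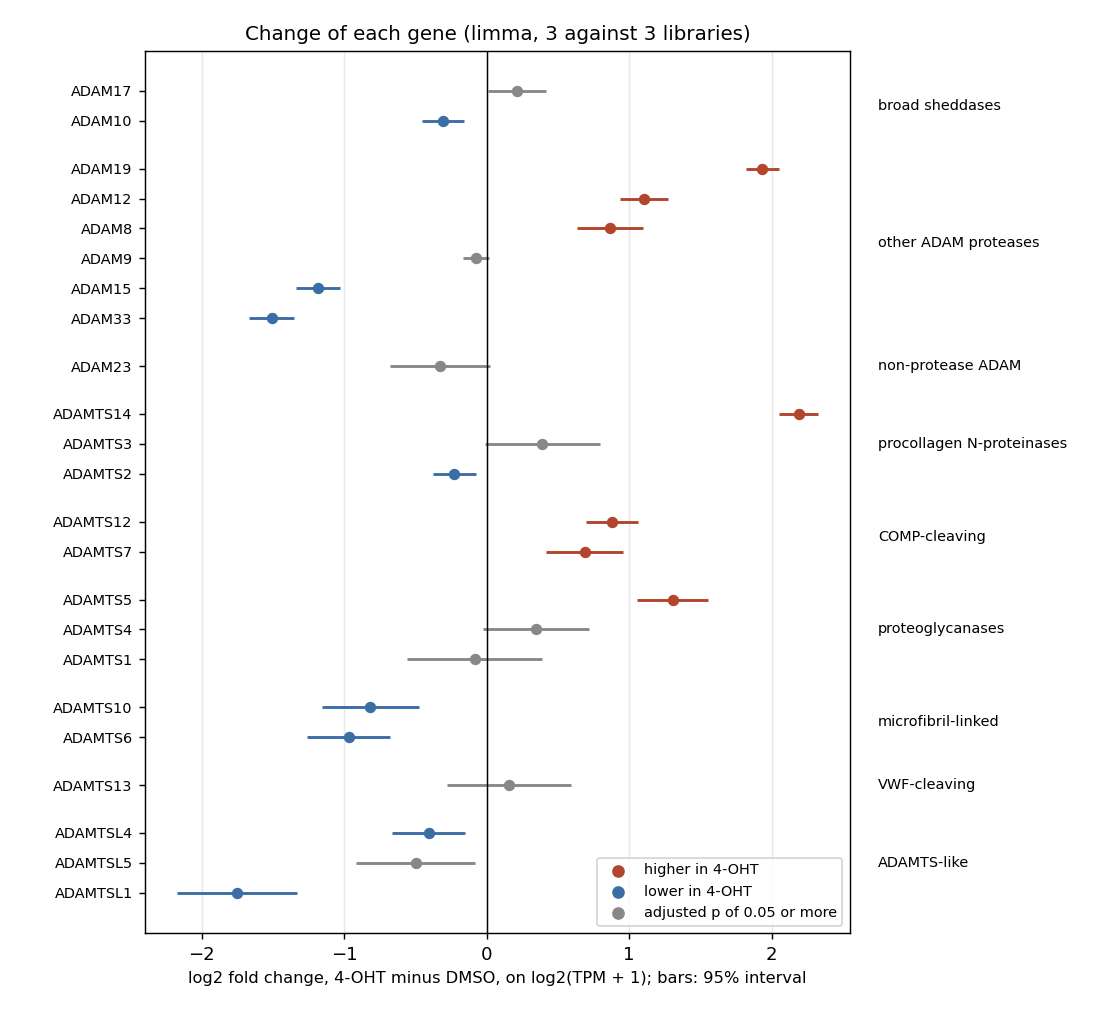
Log2 fold change on the log2(TPM + 1) scale (4-OHT minus DMSO) of the 23 tested members, grouped by role, with bars for the 95% interval and colour for the call. Values run from -1.75 for ADAMTSL1 to 2.19 for ADAMTS14, and most role groups hold genes that moved in opposite directions or did not pass.

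The remaining 23 members were under 1 TPM on average. Of these, 16 had a value above 0 in at least 1 library and 7 were listed at 0 throughout, namely ADAM2, ADAM5, ADAM6, ADAM18, ADAM29, ADAMTS18 and ADAMTS20, several of them known from testis. ADAM32 alone among them reached 1 TPM in any library, 1.27 TPM in DMSO replicate 2. ADAMTS13 (1.65 TPM) and ADAMTS3 (1.47 TPM) had the means closest above the limit, and ADAMTS9 (0.635 TPM) and ADAM21 (0.581 TPM) those closest below. The libraries of the groups did not overlap in 4 of the 16 low members with a value above 0, named here after their values were seen, against 12.8% of all 21542 such genes under 1 TPM. ADAMTS19 had 0.0234, 0.10 and 0.0241 TPM in 4-OHT and 0.651, 0.551 and 0.819 TPM in DMSO. ADAMTS15, a versican-cutting relative of ADAMTS1, had 0.118, 0.154 and 0.0440 TPM in 4-OHT and 0.685, 0.886 and 0.616 TPM in DMSO. ADAM11, a member without a zinc site, had 0.185, 0.139 and 0.146 TPM in 4-OHT and 0.525, 0.633 and 0.669 TPM in DMSO. The 4-OHT libraries were lower for these genes and higher for ADAMTS16, at 0.111 to 0.202 TPM in 4-OHT and 0.0455 to 0.0798 TPM in DMSO.

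Of 18 tested regulators and inhibitors of the sheddases, 7 rose and 5 fell, while 19.8% of all tested genes rose and 29.9% fell. Their median log2 fold change was 0.17, against -0.094 over all genes. TIMP3, the TIMP that inhibits ADAM17 and the proteoglycanases best, rose to 1010, 1026 and 1017 TPM in the 4-OHT libraries, against 281, 285 and 286 TPM in the DMSO libraries (log2 fold change 1.84, adjusted p = 7.48e-08). TIMP1 fell to 630 ± 14.3 TPM in 4-OHT, against 1136 ± 27.2 TPM in DMSO (log2 fold change -0.85, adjusted p = 2.3e-06). RECK, a membrane-anchored metalloprotease inhibitor, had 39.8, 41.7 and 39.6 TPM in 4-OHT and 113, 125 and 114 TPM in DMSO (log2 fold change -1.52, adjusted p = 1.5e-06). A2M, a trapping inhibitor, fell to 2.08 ± 0.713 TPM in 4-OHT, against 7.82 ± 1.25 TPM in DMSO (adjusted p = 0.000772). PCSK6, a convertase of the family that removes propeptides, rose to 4.83 ± 0.224 TPM in 4-OHT, against 1.62 ± 0.575 TPM in DMSO (adjusted p = 0.00139). RHBDF1, an iRhom that carries ADAM17 to the surface, rose to 73.1 ± 4.58 TPM in 4-OHT, against 57.6 ± 3.77 TPM in DMSO (log2 fold change 0.34, adjusted p = 0.00572), and the other iRhom, RHBDF2, did not pass, at 32.7 ± 2.01 TPM in 4-OHT and 29.6 ± 2.35 TPM in DMSO (adjusted p = 0.186). TIMP2 had 809, 804 and 803 TPM in 4-OHT and 140, 887 and 904 TPM in DMSO. DMSO replicate 1 stood far below the rest for TIMP2, the gene was not called (log2 fold change 0.74, adjusted p = 0.4), and without that library the value was -0.15 (adjusted p = 0.0114).

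Among 36 tested surface proteins that ADAM proteases shed, 13 rose and 14 fell, against 19.8% and 29.9% of all tested genes. Their median was -0.10. EREG, an EGF receptor ligand released by ADAM17, rose to 345, 349 and 363 TPM in 4-OHT libraries, against 60.6, 66.9 and 67.0 TPM in DMSO libraries (log2 fold change 2.43, adjusted p = 1.92e-07). AREG and HBEGF, ligands of the same receptor, rose to 16.5 ± 0.545 and 7.21 ± 1.14 TPM in 4-OHT, against 7.63 ± 0.788 and 4.21 ± 0.282 TPM in DMSO (adjusted p = 0.000121 and 0.00599). TGFA, another, stayed at or under 0.106 TPM and was not tested. TNF, the name-giving substrate of ADAM17, had 2.96, 4.68 and 2.98 TPM in 4-OHT and 0.235, 0.206 and 0.405 TPM in DMSO (log2 fold change 1.81, adjusted p = 0.00031). The largest falls in the list were CSF1, the macrophage growth factor, at 8.70 ± 0.898 TPM in 4-OHT and 76.9 ± 1.03 TPM in DMSO (log2 fold change -3.01, adjusted p = 4.2e-07), and SDC4, a heparan sulphate proteoglycan, at 26.5 ± 1.53 TPM in 4-OHT and 166 ± 3.63 TPM in DMSO (log2 fold change -2.60, adjusted p = 1.93e-07). Substrate transcripts moved both ways, and several moved further than ADAM10 or ADAM17, whose log2 fold changes were -0.31 and 0.21.

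Of 19 tested matrix substrates of ADAMTS proteases, 5 rose and 12 fell, against 19.8% and 29.9% of all tested genes. Their median log2 fold change was -0.44. VCAN, the proteoglycan versican, was one of those that rose, with 21.9, 24.1 and 27.0 TPM in 4-OHT and 7.68, 7.02 and 7.95 TPM in DMSO (log2 fold change 1.56, adjusted p = 1.77e-05), and VEGFC, a lymphatic growth factor that ADAMTS3 activates, rose to 270 ± 13.1 TPM in 4-OHT, against 110 ± 1.02 TPM in DMSO (adjusted p = 1.36e-06). LTBP3 and DCN showed the largest falls, LTBP3 at 21.0 ± 2.05 TPM in 4-OHT and 51.1 ± 0.822 TPM in DMSO (adjusted p = 1.59e-05), and DCN, the small proteoglycan decorin, at 90.04 ± 9.49 TPM in 4-OHT and 186 ± 12.8 TPM in DMSO (adjusted p = 6.42e-05). ACAN, encoding aggrecan, stayed at or under 0.000405 TPM, so the classic substrate of ADAMTS5 was nearly without transcript. Of 17 tested microfibril genes and ADAMTSL partners, 6 rose and 8 fell, with a median of -0.33 and the same all-gene shares beside them. FBN1, FBN2, LTBP1, LTBP3 and EFEMP2, all lower, stand in both this list and that of the matrix substrates, so their falls are counted in each. FBN1, the main fibrillin, fell to 83.8 ± 2.92 TPM in 4-OHT, against 114 ± 4.22 TPM in DMSO (log2 fold change -0.44, adjusted p = 0.000323). THSD4, an ADAMTS-like gene outside the numbered names that also binds fibrillin, rose to 43.8 ± 2.11 TPM in 4-OHT, against 24.5 ± 1.34 TPM in DMSO (log2 fold change 0.81, adjusted p = 6.98e-05), the opposite of ADAMTSL1 and ADAMTSL4. LTBP2 and ELN rose most in this list, at 202 ± 11.3 and 2.78 ± 0.262 TPM in 4-OHT and 63.3 ± 2.93 and 0.405 ± 0.0878 TPM in DMSO (adjusted p = 1.27e-06 and 0.000307), and LTBP4 fell most, at 13.1 ± 0.0970 TPM in 4-OHT and 34.4 ± 2.24 TPM in DMSO (adjusted p = 7.73e-06; all SD, n = 3 each).

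**Figure D5:**
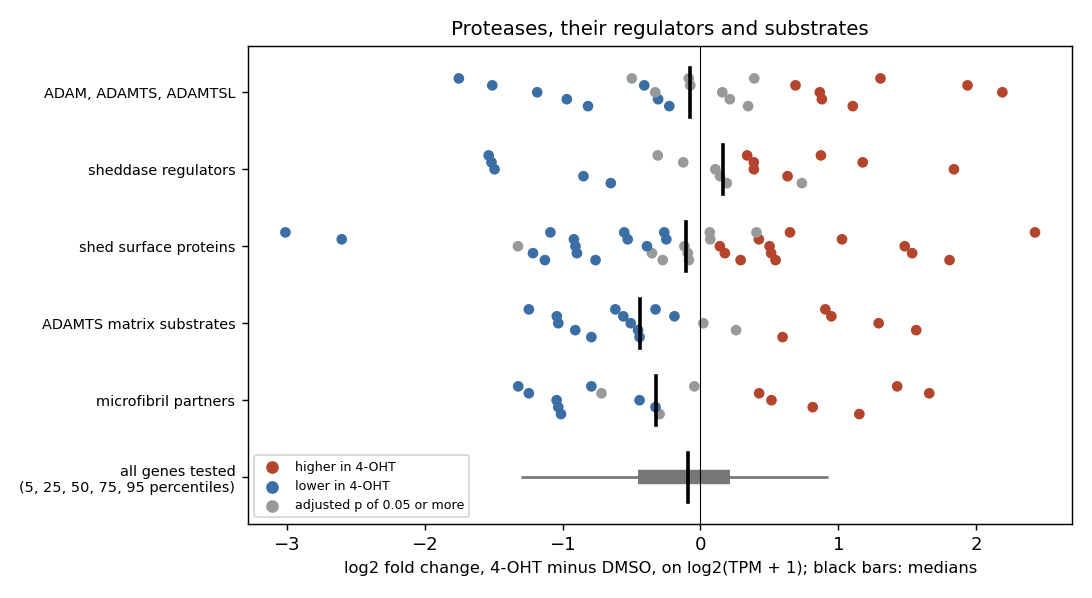
Log2 fold change on the log2(TPM + 1) scale (4-OHT minus DMSO) of each tested gene, with the 23 members in 1 row and their regulators, substrates and partners in a row each, coloured by call, with black bars at the medians and the percentiles of all tested genes at the bottom. Every row spreads to both sides of 0, and the matrix substrates have the lowest median of the rows, -0.44. FBN1, FBN2, LTBP1, LTBP3 and EFEMP2 stand in both the matrix substrate row and the microfibril row.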

How the data were processed

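Per the labels, libraries were made with the KAPA RNA HyperPrep kit from 1 µg of TRIzol-extracted total RNA of HFF fibroblasts. The authors deposited TPM per gene symbol for 59050 entries, and each of the 6 libraries sums to 998367 to 998843. The tools were Trim Galore 0.6.6, STAR and StringTie, and the genome GRCh38, per the submitters' processing notes. Which gene annotation and strand setting were used, and whether libraries were scaled to each other, is not given in the sources used here. A single deposited TPM, in DMSO replicate 3 (MTND5P11), was slightly negative and was replaced by 0. TPM keeps no read depth, and detection limits cannot be given. Date-like symbols numbered 27, and 2 symbols had more than 1 entry. MCAM is not analysed here.

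The comparison used limma 3.58.1 (R 4.3.3): a linear model per gene on log2(TPM + 1), moderated with a variance trend, 2-sided, 3 against 3 libraries, no covariates. It covered the 15272 genes whose mean reached 1 TPM, with Benjamini-Hochberg adjustment over all of them and a threshold of 0.05. Fold changes on this scale understate changes of low genes. The fit was tested on simulated data with independent noise in each library, which cannot show whether the real libraries are independent. Positions, zinc sites, overlaps and near copies come from GENCODE 29, and promoters from RefSeq (GRCh38.p14), read with Python 3.11.15 and pandas 2.3.3. All tested members could be named, and of each other list the 2 called genes with the largest change in each direction plus genes of known role. The members, lists and tests were chosen with earlier results of these data known. Alternatives tried were other scalings, pseudocount, filters, variance model, replicate block and leaving out each library.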

Additional observations from a re-analysis of the deposited data

How the results depend on the processing

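Of the 23 tested members, 14 kept their direction and their side of the threshold in every alternative run for them. The filter of 5 TPM left out 5 of these 14 (ADAM23, ADAMTS5, ADAMTS6, ADAMTS13 and ADAMTSL1). Members higher and lower in 4-OHT numbered 7 and 8, against 8 and 6 with median-of-ratios scaling, 10 and 7 with quantile normalisation, and 7 to 8 and 6 to 8 when each library was left out in turn. The numbers over all tested genes moved as well. As deposited, 3018 of 15272 were higher and 4561 lower. Median-of-ratios scaling gave 4039 and 3579 of 15225, and quantile normalisation 3649 and 3612 of 15276. Leaving out each library gave 2620 to 2755 higher and 3903 to 4180 lower, of 15214 to 15365. Median-of-ratios scaling moved the median of all genes by more than 0.1 log2 units, from -0.094 to 0.013, and the share of called genes that were lower was 60.2% as deposited, 47.0% with median-of-ratios and 49.7% with quantile normalisation. Under median-of-ratios ADAM9 turned to 0.047 and ADAMTS1 to 0.034, neither called, the ADAM sums became 801 TPM in 4-OHT and 708 TPM in DMSO, no longer overlapping, and the ADAMTS sums 255 TPM in 4-OHT and 174 TPM in DMSO. Quantile normalisation gave 24.2 TPM for the summed ADAMTSL genes in 4-OHT. The filter of 5 TPM left 2 sheddase regulators lower in place of 5, with 13 of 18 tested. ADAMTS7 summed with ADAMTS7P4, a setting chosen after seeing the data, gave -0.019. Leaving out libraries, ADAMTS1 ranged from -0.23 to 0.17 and TIMP2 from -0.15 to 1.19, ADAMTS1 turning positive without 4-OHT replicate 3 and TIMP2 negative without DMSO replicate 1.

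The adjusted p of ADAMTS2 ranged from 0.0104 to 0.186 over the alternatives, and the call was lost without 4-OHT replicate 1 or 3 (0.0684 each), DMSO replicate 2 (0.056) or DMSO replicate 3 (0.0612). That of ADAMTSL4 ranged from 0.0137 to 0.0686, of ADAMTSL5 from 0.00464 to 0.193 and of ADAM17 from 0.0142 to 0.215, called also with quantile normalisation and without 4-OHT replicate 1. ADAMTS3 and ADAMTS4 passed with quantile normalisation (0.0315 and 0.0155), and ADAMTS3 without the variance trend (0.0339). Where no value above shows it, the cause was not tested.

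Replicate numbers are shared by the groups. Deviations of same-numbered libraries correlated at 0.0475, 0.00549 and 0.00664, and not every library correlated best with its own number. No shared deviation was seen, but such values cannot show whether same-numbered libraries came from a shared culture or batch. With the replicate block, 7 members were higher and 9 lower (ADAMTSL5, adjusted p = 0.0344), and 2819 genes were higher and 4246 lower in all, against 3018 and 4561 without it. TPM gives no depth, so the counting error of members near 1 TPM is unknown.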

Other observations

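There were 17 further entries that begin with ADAM but fall outside the numbered names, and ADAMTS7P4 was the only one to average 1 TPM. ADAM20P1, a pseudogene chosen after its values were seen, had 0.130, 0.140 and 0.147 TPM in 4-OHT and 0.761, 0.349 and 0.695 TPM in DMSO, without overlap. With no filter on low values, ADAMTS19 (log2 fold change -0.67, adjusted p = 0.00407), ADAMTS15 (-0.64, adjusted p = 0.00648) and ADAM11 (-0.48, adjusted p = 0.00522) passed the test in limma at levels under 1 TPM, and ADAMTS16 did not (0.13, adjusted p = 0.061). No other member under 1 TPM passed, and 6834 of all 36814 genes did in this setting. The named genes were picked because their groups did not overlap, so these calls on the same values add no separate support.

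The members lie on 18 chromosomes, 7 of them on chromosome 8 and 6 on chromosome 5. ADAM9 and ADAM32 lie 1845 bases apart on chromosome 8, with means of 358 and 0.576 TPM over the 6 libraries, and ADAMTS8 and ADAMTS15 lie 19980 bases apart on chromosome 11, both under 1 TPM.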
